A study of Mus musculus with 12 samples.

Results

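The dystrophin-glycoprotein complex was followed through 9 genes that encode its syntrophins and core subunits in Pax7-ZsGreen+ satellite cells, the stem cells of skeletal muscle. The genes were taken by symbol from the table of raw counts, and all 9 were found among its 55401 genes. They were Sntb1, Sntb2, Dmd, Utrn, Dtna, Dtnb, Dag1, Sgca and Sgcb. The family was chosen by the measured level of Sntb1, which stood out between Cxcr4 KO and WT cells after culture, and the values of all members in that contrast are therefore a description and carry no test, as do those of Sntb1 in the other contrasts that use cultured cells.

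The cells were sorted from the hind limbs of adult mice. WT mice were Cxcr4 FL/FL; Pax7-ZsGreen and carried no cre, whereas KO mice were Cxcr4 FL/FL; Pax7-creERT2; Pax7-ZsGreen, so that cre was driven from Pax7, the gene that also marked the sorted cells. Mice of both genotypes were given tamoxifen at 80 mg/kg for 5 days. Freshly sorted cells made up the quiescent groups, with 4 WT and 4 KO libraries, and cells cultured overnight made up the activated groups, with 2 WT and 2 KO libraries. RNA was measured in bulk by sequencing of polyA RNA, and fewer cells of a type cannot be told apart from less RNA per cell.

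Dystrophin and its relative utrophin bind actin at the inner face of the membrane and hold dystroglycan, whose extracellular part binds laminin. Sarcoglycans stabilise dystroglycan in the membrane, and dystrobrevins and syntrophins are cytoplasmic adaptors that recruit signaling proteins to the complex. Loss of dystrophin causes Duchenne muscular dystrophy. In satellite cells, dystrophin is known to organise cell polarity before division, and Sntb1 to scaffold the kinase encoded by Mapk12, which acts on Carm1, an activator of Myf5.

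Total counts were 12775593 to 23717013 in the quiescent libraries and 3172164 to 5427280 in the activated ones. The rRNA-like gene CT010467.1 took 0.295 to 0.807% of counts in quiescent libraries and 11.5 to 40.3% in activated ones, with the highest share in WT activated replicate 2. Cxcr4, the targeted gene, was at 59.1 to 112 CPM (counts scaled to library size) in WT and 12.5 to 21.2 CPM in KO quiescent libraries, and at 33.3 and 14.4 CPM in WT and 5.39 and 13.7 CPM in KO activated libraries. It fell by 2.24 ± 0.31 on the log2 scale in quiescent KO cells (SE, edgeR, adjusted p = 0.00477), whereas its log2 difference of -1.35 ± 0.46 after culture was not called (adjusted p = 0.381). Pax7 was detected in all 12 libraries, at 71.2 to 482 CPM. It was at 303 to 482 CPM in WT and 181 to 290 CPM in KO quiescent libraries, which did not overlap. That log2 difference of -0.67 ± 0.23 was not called (SE, edgeR, unadjusted p = 0.00987). Xist was at 1.20 to 7.17 CPM in quiescent and 451 to 817 CPM in activated libraries, and summed Y-linked genes were at 358 to 660 CPM in quiescent and 0 to 2.51 CPM in activated libraries. Culture therefore cannot be told apart from the sex of the animals, and Dmd lies on the X chromosome. The 11 listed markers of mature muscle fibre summed to 336 to 1114 CPM in quiescent libraries and 7687 to 18278 CPM in activated libraries. All 10 that were tested were higher after culture in both genotypes, while satellite cell markers were lower after culture for 8 of 9 in WT and 9 of 9 in KO. Beside these counts, 11.5% of all genes were higher and 18.3% lower in WT, and 13.3% and 20.4% in KO.

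The members fall into paralog pairs, and the longest stretch of identical transcript sequence within a pair was short, which is shown because counts of close copies could otherwise mix. Sntb1 and Sntb2 shared at most 20 bases, at chr15:55906101-55906120 on the minus strand and chr8:106936225-106936244 on the plus strand. Dmd and Utrn shared at most 25 bases, at chrX:85110051-85110075 on the plus strand and chr10:12441961-12441985 on the minus strand. Both runs lie within 1 exon of each gene in build GRCm38, and the capitals mark the shared bases.
Sntb1 and Sntb2: GCCATCCTGTCGGTGAACGG
Dmd and Utrn: CCTTTGGGGGCAGTAACATTGAGCC
The runs shared by Dtna and Dtnb and by Sgca and Sgcb were 31 and 12 bases, the former not wholly coding. All of these are shorter than a sequencing read of this study.

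The 250 bases before a start of transcription are shown for Dag1 and Dmd, members that fell after culture in both genotypes, from RefSeq sequence of build GRCm38.p6. The Dag1 window is chr9:108263959-108264208 on the minus strand, and the Dmd windows are chrX:82948620-82948869, before the first exon of the gene, and chrX:85048045-85048294, before an internal start, both on the plus strand. Capitals mark a GC box (letters GGGCGG) or a CCAAT box (letters CCAAT), read on either strand.
Dag1: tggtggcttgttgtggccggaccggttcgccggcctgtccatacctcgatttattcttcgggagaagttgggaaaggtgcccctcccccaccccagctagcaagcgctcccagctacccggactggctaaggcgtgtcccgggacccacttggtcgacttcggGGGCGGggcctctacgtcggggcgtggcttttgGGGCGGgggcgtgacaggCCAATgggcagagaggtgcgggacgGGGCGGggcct
Dmd, first start: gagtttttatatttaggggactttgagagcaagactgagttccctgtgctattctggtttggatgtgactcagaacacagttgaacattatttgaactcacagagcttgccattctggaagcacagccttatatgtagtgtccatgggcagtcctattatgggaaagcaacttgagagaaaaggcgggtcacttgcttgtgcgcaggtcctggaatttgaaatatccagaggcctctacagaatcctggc
Dmd, internal start: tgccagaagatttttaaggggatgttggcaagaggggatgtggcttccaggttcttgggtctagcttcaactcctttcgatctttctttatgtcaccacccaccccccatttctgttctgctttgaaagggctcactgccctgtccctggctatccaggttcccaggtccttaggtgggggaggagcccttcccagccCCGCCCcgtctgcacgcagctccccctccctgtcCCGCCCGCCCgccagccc
The Dag1 window held the GC box 3 times and the CCAAT box 1 time, the internal Dmd window held the GC box 3 times with overlapping matches, and the first Dmd window held neither. Utrn fell in both genotypes as well, and its RefSeq window, which lies inside the gene as annotated by GENCODE, held neither and is not printed. Among 32851 RefSeq promoter windows of mouse genes, 32.7% held the GC box and 33.9% held the CCAAT box. CAGCTG, an E-box bound by myogenic factors, and TTCCGG, an Ets motif, were searched on both strands as well and were in none of the 3 windows, while 13% and 12.03% of all windows held them. These matches are a description of the letters only.

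Levels were compared between genes as CPM per kilobase of exon. In WT quiescent cells Dag1, which encodes both dystroglycan subunits, was highest at 148 ± 36.3 (SD, n = 4). Sntb2 followed at 27.3 ± 4.29, Sgca at 14.6 ± 1.86, Sgcb at 8.10 ± 0.823, Utrn at 6.64 ± 1.35, Sntb1 at 4.26 ± 0.382, Dmd at 3.55 ± 0.703, Dtnb at 1.27 ± 0.350 and Dtna at 0.297 ± 0.0460. Of neighbours in this order, Sgcb and Utrn overlapped between libraries, as did Sntb1 and Dmd, and the others did not. In KO quiescent cells the order of the means was the same, and Dag1 reached 147 ± 70.9 (SD, n = 4).

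After culture the order changed. In WT activated cells Dag1 stayed highest at 35.6 ± 1.37 CPM per kilobase (SD, n = 2), Sgcb came next at 11.9 ± 1.34, and Sntb1, Dtnb, Dtna and Dmd were lowest at 0.816 ± 0.242, 0.790 ± 0.0856, 0.765 ± 0.345 and 0.761 ± 0.329. Neighbours among these 4 genes overlapped between libraries, while Sntb1 did not overlap with Utrn above it. In KO activated cells Sntb1 was the fourth highest at 6.71 ± 0.208 (SD, n = 2), above Sntb2 at 3.37 ± 0.758, and their libraries did not overlap. The authors' FPKM, 1 value per group, lay within 1 SD of these means for 36 of 36 pairs of gene and group. They come from the same libraries, so this checks the calculation and is no independent measure of the levels.

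In build GRCm38, Sntb1 spans chr15:55636388-55906949, Sntb2 chr8:106935750-107019714, Dmd chrX:82948870-85206141, Utrn chr10:12382188-12869365, Dtna chr18:23415135-23659715, Dtnb chr12:3572381-3781796, Dag1 chr9:108204634-108263958, Sgca chr11:94962791-94976327 and Sgcb chr5:73632749-73647790. The Dmd locus held 13 distinct annotated transcript starts over 84 exon blocks, so its count adds full-length and shorter dystrophins. Over 90 exonic bases, or 0.532% of its exons, Dtna overlapped the antisense gene Gm47898, whose reads cannot be told apart where strand was not used.

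**Figure D1:**
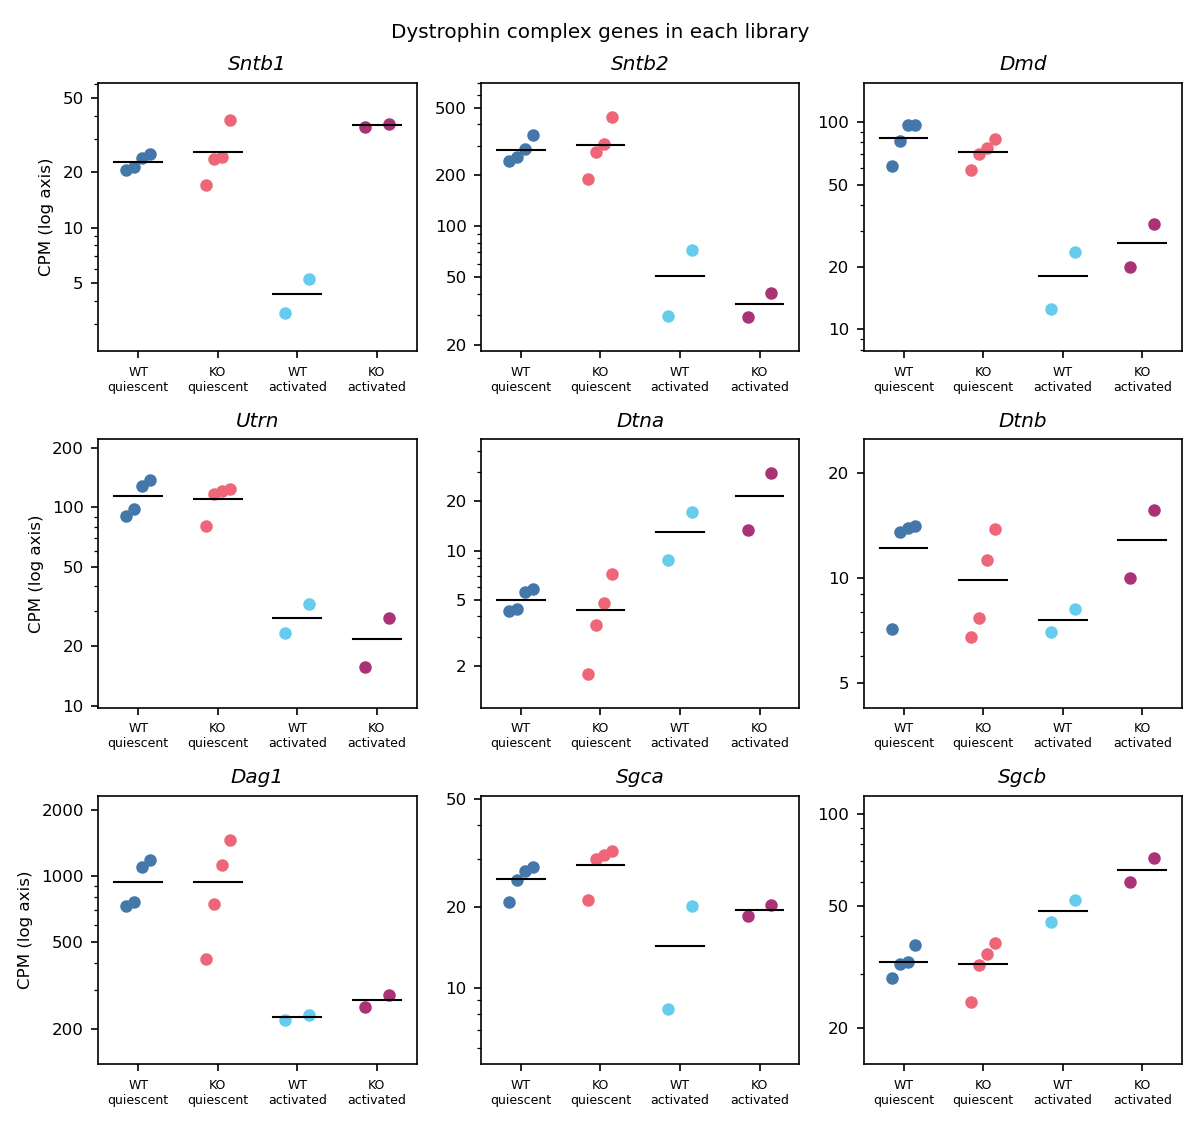
CPM on a log axis for each of the 9 genes in each library, with 4 WT quiescent, 4 KO quiescent, 2 WT activated and 2 KO activated points and a line at each group mean. Sntb1 lies at 3.43 and 5.25 CPM in the WT activated libraries and at 16.9 CPM or more in every other library, while Sntb2, Dmd, Utrn and Dag1 are lower in all activated libraries than in any quiescent library.

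Deletion of Cxcr4 was compared with WT in quiescent cells first, a contrast that did not serve to choose the genes. None of the 9 members passed the test, with log2 fold changes from -0.30 for Dtnb to 0.18 for Sntb1 and a median of -0.02, beside 0.02 over all genes. Across all 25771 genes tested, 0.0155% were called at an adjusted p under 0.05 in edgeR's quasi-likelihood test, and 1.74% had an unadjusted p under 0.05, as did 0 of the 9 members. All 9 passed the filter on low counts. Intervals of 95% reached from -0.95 to 0.55 on the log2 scale for Dtna, the widest, and from -0.42 to 0.37 for Sgcb, the narrowest.

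Sntb1, a beta-syntrophin, was at 23.9, 24.9, 20.6 and 21.4 CPM in the WT quiescent libraries and at 38.1, 16.9, 24.1 and 23.4 CPM in the KO quiescent libraries. The WT values lay within the range of the KO values, with KO replicate 1 the highest and KO replicate 2 the lowest of the 8. The log2 fold change was 0.18 ± 0.24 (SE, edgeR, adjusted p = 1). Sntb2, the other beta-syntrophin, was at 285, 244, 258 and 344 CPM in WT and 275.3, 190, 305 and 442 CPM in KO.

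Dag1 varied widely among KO quiescent libraries. It was at 1094, 1183, 726 and 765 CPM in WT and at 416, 747, 1454 and 1123 CPM in KO, so that the KO libraries held both the lowest and the highest value. Its log2 fold change of -0.01 ± 0.29 (SE) rested on that spread. Dtnb was at 13.9, 7.17, 13.6 and 14.1 CPM in WT and 11.3, 7.72, 6.81 and 13.8 CPM in KO, with WT replicate 2 apart from the other WT libraries.

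The balance within pairs was tested as a share of counts. Sntb1 made up 7.56 ± 1.40% of Sntb1 and Sntb2 counts in WT and 8.18 ± 2.98% in KO quiescent libraries (SD, n = 4 each), a difference of 0.612 percentage points (exact permutation test, two-sided p = 0.771, smallest possible 0.0286). Dmd made up 42.8 ± 8.09% of Dmd and Utrn counts in WT and 39.6 ± 2.62% in KO (SD, n = 4 each, exact permutation test, two-sided p = 0.571). The Sntb1 difference was smaller than the SD of either group. The Dmd difference was smaller than the SD of WT libraries but larger than that of KO libraries. Adjusted over the 3 share comparisons made, both p-values were 0.771 (Benjamini-Hochberg, exact permutation tests).

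Activated cells were then compared with quiescent cells to follow the genes through culture. Of the 8 members other than Sntb1, 4 fell and 1 rose, which is 62.5% called, against 29.8% of all genes tested (11.5% higher and 18.3% lower) and 43.7% of genes averaging 10 or more counts. The median log2 fold change of the 8 was -1.45, beside -0.92 over all genes and -0.46 over those averaging 10 or more counts. In KO cells 4 fell and 2 rose, or 75% of the 8, against 33.7% of all genes (13.3% higher and 20.4% lower) and 48.3% of those averaging 10 or more counts. The median of the 8 in KO was -1.004, beside -0.96 over all genes and -0.49 over those averaging 10 or more counts. WT and KO cells share no library in these contrasts, and 4 members fell in both, 1 rose in both and 0 were called in opposite directions. Of all 25771 genes, 3601 fell in both, 2443 rose in both and 6 were called in opposite directions, so that the absence of opposite calls is not particular to the members.

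Dmd encodes dystrophin. It was at 96.9, 61.9, 97.3 and 81.4 CPM in WT quiescent and 12.6 and 23.6 CPM in WT activated libraries, and at 75.2, 58.7, 70.7 and 82.9 CPM in KO quiescent and 20.03 and 32.4 CPM in KO activated libraries. Every activated value was below every quiescent value. Dmd fell by 2.26 ± 0.34 on the log2 scale in WT (SE, edgeR, adjusted p = 3.76e-05) and fell by 1.45 ± 0.31 in KO (adjusted p = 0.00136). Without KO activated replicate 1 the KO fall was not called (adjusted p = 0.0568). In KO cells Dmd then rested on 142 counts in the remaining library.

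Utrn, which encodes utrophin, followed the same direction. Its WT quiescent values were 138, 128, 90.1 and 98.3 CPM against 32.5 and 23.2 CPM in WT activated libraries, and its KO quiescent values were 124, 80.6, 120 and 117 CPM against 15.7 and 27.6 CPM. The quiescent and activated libraries did not overlap. Utrn fell by 2.01 ± 0.32 on the log2 scale in WT (SE, edgeR, adjusted p = 7.13e-05) and fell by 2.35 ± 0.32 in KO (adjusted p = 1.53e-05).

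With both falling, the Dmd share of Dmd and Utrn counts was 41.2 ± 5.82% over 8 quiescent libraries and 47.1 ± 13.02% over 4 activated libraries (SD, exact permutation test, two-sided p = 0.295, adjusted 0.771). The activated shares were 27.9 and 50.5% in WT and 56.1 and 54.0% in KO. Without WT activated replicate 1, which had the lowest share, the difference grew from 5.94 to 12.3 percentage points (exact permutation test, two-sided p = 0.0242, adjusted 0.0727), which did not pass after adjustment.

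**Figure D2:**
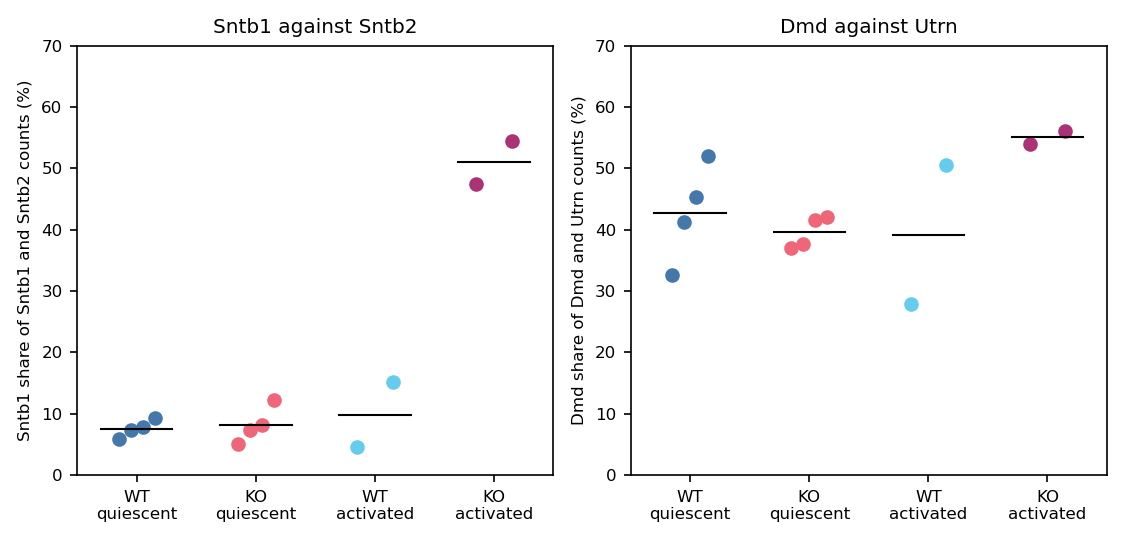
Share of counts, in percent, of Sntb1 within Sntb1 and Sntb2 (left) and of Dmd within Dmd and Utrn (right) in each library, with a line at each group mean. The Sntb1 share is 54.4 and 47.5% in KO activated libraries and at most 15.2% elsewhere, and the Dmd shares of WT activated libraries, 27.9 and 50.5%, lie far from each other.

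Dag1 fell by 2.06 ± 0.40 on the log2 scale in WT (SE, edgeR, adjusted p = 0.000584) and fell by 1.79 ± 0.39 in KO (adjusted p = 0.00155). Its activated values were 220 and 233 CPM in WT and 287 and 253 CPM in KO, all below the lowest quiescent value of 416 CPM. Dag1 remained the highest member per kilobase in every group.

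Sntb2 fell by 2.45 ± 0.38 on the log2 scale in WT (SE, edgeR, adjusted p = 6.87e-05) and fell by 3.12 ± 0.40 in KO (adjusted p = 6.93e-06). Its activated values were 72.9 and 29.3 CPM in WT and 29.3 and 40.4 CPM in KO, against 190 CPM or more in each quiescent library. The WT activated libraries differed more from each other than the KO ones.

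Dtna, which encodes alpha-dystrobrevin, was the member that rose in both genotypes. Its WT quiescent values were 4.44, 5.82, 5.57 and 4.29 CPM against 8.82 and 17.1 CPM after culture, and its KO quiescent values were 4.80, 1.78, 7.23 and 3.54 CPM against 13.4 and 29.7 CPM. Groups did not overlap in either genotype. Dtna rose by 1.33 ± 0.47 on the log2 scale in WT (SE, edgeR, adjusted p = 0.0394) and by 2.30 ± 0.45 in KO (adjusted p = 0.000580). The WT call was lost when WT activated replicate 2, the library with most CT010467.1, was left out (log2 fold change 0.87, adjusted p = 0.359). It was also lost without WT quiescent replicate 1, 3 or 4 (adjusted p = 0.0721, 0.0537 and 0.0700), and thus in 4 of the 6 fits with a library left out.

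Dtnb, which encodes beta-dystrobrevin, was not called in either genotype, with log2 fold changes of -0.67 ± 0.41 in WT (SE, adjusted p = 0.210) and 0.37 ± 0.38 in KO (adjusted p = 0.442). It was at 8.17 and 7.01 CPM in WT activated and 15.7 and 10.0 CPM in KO activated libraries, of which the 15.7 CPM lay above the quiescent range of 6.81 to 14.1 CPM and the others within it.

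The sarcoglycans differed from each other. Sgcb, or beta-sarcoglycan, rose by 1.03 ± 0.24 on the log2 scale in KO (SE, edgeR, adjusted p = 0.00283), from 24.3, 32.0, 37.9 and 34.9 CPM to 59.8 and 71.6 CPM. In WT it went from 29.1, 37.2, 32.2 and 32.8 CPM to 44.4 and 52.1 CPM without overlap, a log2 difference of 0.55 ± 0.25 that did not pass the test (SE, adjusted p = 0.0981). Without KO activated replicate 2 the KO rise was not called either (adjusted p = 0.0632).

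Sgca, or alpha-sarcoglycan, was at 20.8 to 28.1 CPM in WT quiescent and 8.33 and 20.1 CPM in WT activated libraries, and at 21.1 to 32.1 CPM in KO quiescent and 18.5 and 20.3 CPM in KO activated libraries. The activated values were the lower ones in both genotypes, but the differences of -0.89 ± 0.34 in WT (SE, adjusted p = 0.0552) and -0.56 ± 0.32 in KO (adjusted p = 0.183) did not pass. The WT call changed without WT activated replicate 2, which had the higher of both Sgca values (log2 fold change -1.54, adjusted p = 0.0120).

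**Figure D3:**
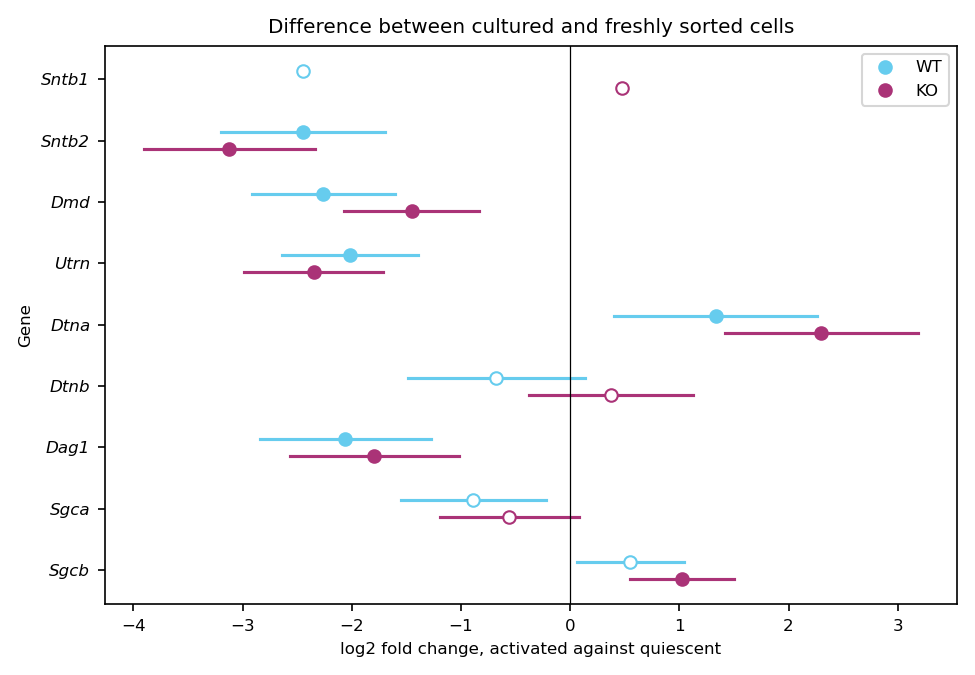
Log2 fold change of activated against quiescent cells for each gene in WT and KO, with approximate 95% intervals as lines and filled points for genes called at an adjusted p under 0.05 (edgeR). Sntb2, Dmd, Utrn and Dag1 lie to the left and Dtna to the right of 0 in both genotypes, and Sntb1 is drawn open and without an interval because its cultured values chose the list.

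Sntb1 itself went from 20.6 to 24.9 CPM in WT quiescent libraries to 3.43 and 5.25 CPM in WT activated libraries, which rest on 21 and 12 counts. In KO cells it was at 34.9 and 36.5 CPM after culture, from 136 and 160 counts, within its quiescent range of 16.9 to 38.1 CPM. As a description, its log2 fold change with culture was -2.45 ± 0.38 in WT and 0.48 ± 0.30 in KO (SE).

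Deletion of Cxcr4 was also compared with WT after culture, the contrast that chose Sntb1. The log2 fold change of Sntb1 was 3.10 ± 0.42 (SE), and each of the 4 pairs of a KO and a WT library gave a ratio between 6.65 and 10.6. Across all genes 0.0504% were called in this contrast, and 24.7% had groups of 2 against 2 that did not overlap. Among the members, groups did not overlap for Sntb1, Dtnb, Dag1 and Sgcb, all higher in KO, beside 15.2% of all genes, and nothing is read from that count. The other 8 had log2 fold changes from -0.57 for Sntb2 to 0.77 for Dtna, and the median of the 9 was 0.51, beside 0 for all genes.

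The Sntb1 share of Sntb1 and Sntb2 counts was 4.497 and 15.2% in WT activated and 54.4 and 47.5% in KO activated libraries. In the former the share rested on 21 Sntb1 and 446 Sntb2 counts in replicate 1 and on 12 and 67 in replicate 2. Sntb2 was higher in KO in 1 of 4 pairs of libraries. Per kilobase of exon the shares were 8.39 and 25.8% in WT and 69.9 and 63.7% in KO.

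**Figure D4:**
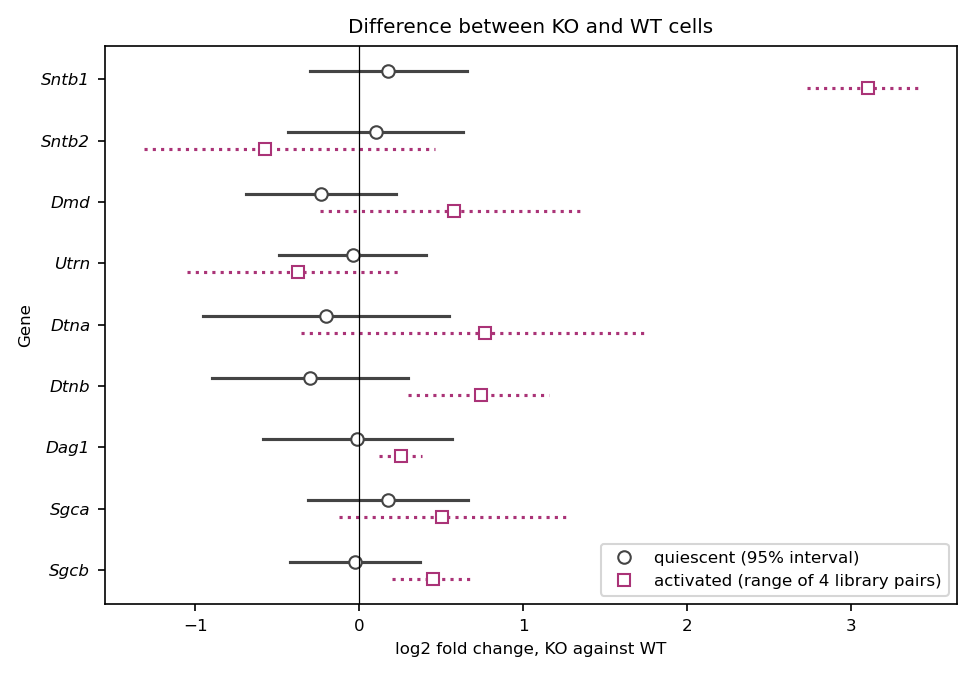
Log2 fold change of KO against WT for each gene, with circles and approximate 95% intervals for quiescent cells and squares with dotted lines, which span the 4 pairs of a KO and a WT library, for activated cells. All quiescent intervals include 0, and Sntb1 in activated cells lies at 3.10, apart from the other members, whose values run from -0.57 to 0.77.

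Among the genes with a pattern most like Sntb1 over the 12 libraries, by Pearson's r of log2 CPM, were Fbxl16 (r = 0.951), Igf2os (0.927), Gm12917 (0.923) and Fa2h (0.923). This is a ranking over all genes tested and has no test. Igf2os and Gm12917 were at 0 counts in both WT activated libraries and Fa2h in 1 of them, so their likeness rests on low counts, and Igf2os is an antisense gene whose reads cannot be assigned without strand. Fbxl16 was at log2 CPM of -0.34 and -0.79 in WT activated, 3.11 and 2.66 in KO activated and 2.44 to 3.51 in quiescent libraries. The r of the other members with Sntb1 ran from -0.15 for Sgcb to 0.59 for Sgca. Sntb2 and Utrn were the closest pair of members (r = 0.968, 12 libraries). Both were lower in every activated than in any quiescent library, and the states also differed in depth.

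The wider pathway was followed through 61 further genes, of which 60 were tested and B4gat1 did not pass the filter. In quiescent cells 0 of 60 were called between KO and WT by edgeR, and 1 had an unadjusted p under 0.05. In activated cells 0 of 60 were called by edgeR and 7 had an unadjusted p under 0.05, as did 8.37% of all genes. Aqp4, which is among the 60, was called in this contrast by the study with DESeq2. With culture 16 rose and 18 fell in WT (56.7% called) and 18 rose and 19 fell in KO (61.7%), beside 29.8% and 33.7% of all genes and 43.7% and 48.3% of genes averaging 10 or more counts. Across the separate libraries of both genotypes, 14 rose in both, 15 fell in both and 0 were called in opposite directions, beside the counts over all genes given above. The test of whether KO and WT responded differently to culture called 0 of 60 genes in edgeR, with 6 at an unadjusted p under 0.05. The share of all genes was not worked out for this test, and nothing is read from these counts.

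Among relatives of dystrophin and the syntrophins, Drp2, a dystrophin-related protein, fell by 3.496 ± 0.34 in WT and fell by 3.65 ± 0.34 in KO (SE, edgeR, adjusted p = 3.35e-07 and 1.89e-07). Drp2 was at 654 ± 138 CPM in WT quiescent cells and 57.9 ± 2.65 CPM in WT activated cells. The gamma-syntrophin genes Sntg1 and Sntg2 and the dystrotelin gene Dytn were at 0 counts in all 4 activated libraries. With a floor of 3 counts over the group, Sntg1 was at least 4.77-fold lower in WT and at least 5.07-fold lower in KO, and Dytn at least 2.77-fold and 2.47-fold lower. Sntg2 was at least 3.62-fold lower in WT and at least 1.62-fold lower in KO. Neither Sntg2 in KO (edgeR, adjusted p = 0.0914) nor Dytn in WT or KO (adjusted p = 0.0578 and 0.0559) passed the test, and the lowest quiescent libraries of Sntg2 in KO (0.0522 CPM) and Dytn in WT (0.193 CPM) lay below the floor.

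Among other sarcoglycans and sarcospan, Sgce, the epsilon-sarcoglycan found in many tissues, fell by 3.28 ± 0.57 on the log2 scale in WT and fell by 3.42 ± 0.57 in KO (SE, edgeR, adjusted p = 0.000201 and 0.000112), and was at 12 and 11 summed counts in the WT and KO activated groups. Sgcd, the delta-sarcoglycan, rose by 1.83 ± 0.70 in KO (SE, edgeR, adjusted p = 0.0484), from 22 summed counts after culture, and had a log2 fold change of 0.48 ± 0.73 in WT. Sspn, or sarcospan, was not called, and Sgcz had 33 counts in WT quiescent and 0 in WT activated libraries, with no call. Mature fibre markers were higher in the same libraries, as given above, and their part in these values was not tested.

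Genes for the sugar chains that let dystroglycan bind laminin rose more often than they fell, with 9 rising and 1 falling of 17 tested in WT and 10 rising and 1 falling in KO. Of all genes, 11.5% rose and 18.3% fell in WT and 13.3% rose and 20.4% fell in KO. Pomk, a kinase that acts on the sugar, rose by 2.49 ± 0.40 on the log2 scale in WT and by 2.02 ± 0.41 in KO (SE, edgeR, adjusted p = 8.90e-05 and 0.000704). Pomgnt2 rose by 2.26 ± 0.37 and 1.69 ± 0.36 (adjusted p = 0.000100 and 0.00126). Dpm1, a subunit of the enzyme that makes dolichol phosphate mannose, was the gene that fell, by 2.62 ± 0.46 in WT and 1.48 ± 0.42 in KO (adjusted p = 0.000234 and 0.0110). The median over the list was 0.82 in WT and 0.94 in KO, beside -0.92 and -0.96 over all genes. Over genes averaging 10 or more counts the median was -0.46 in WT and -0.49 in KO.

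Of 11 extracellular ligands of dystroglycan, 7 fell in WT and 9 in KO, and 0 rose, beside 18.3% and 20.4% of all genes that fell. Lama2, the laminin chain of the muscle basement membrane, fell by 3.47 ± 0.41 on the log2 scale in WT and fell by 4.31 ± 0.43 in KO (SE, edgeR, adjusted p = 2.72e-06 and 4.04e-07), from 87.5 ± 17.3 to 7.58 ± 2.67 CPM in WT (SD). Lama1 had 0 counts in WT activated libraries and was at least 8.53-fold lower there than in WT quiescent ones. Markers of fibroadipogenic progenitors, cells that make matrix, summed to 344 to 3260 CPM in quiescent and 275.0 to 744 CPM in activated libraries, with 3 of 7 lower in WT and 3 of 7 lower and 1 higher in KO. Endothelial markers, at 332 to 1624 against 135 to 809 CPM, were lower for 4 of 9 in WT and 3 of 9 in KO, and their part in these values was not tested.

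Cytoplasmic partners were divided, with 4 rising and 4 falling of 14 in each genotype, or 57.1% called, beside 29.8% of all genes in WT and 33.7% in KO and 43.7% and 48.3% of genes averaging 10 or more counts. Aqp4, the water channel anchored by syntrophins, was at 0.940, 2.63, 1.80 and 0.241 CPM in WT quiescent and 15.7 and 37.7 CPM in WT activated libraries. In KO cells it was at 3.03, 3.28, 1.70 and 0.331 CPM in quiescent and 141 and 187 CPM in activated libraries, so that both KO activated values lay above both WT activated ones. Aqp4 rose by 4.24 ± 0.62 on the log2 scale in WT and by 6.32 ± 0.62 in KO (SE, edgeR, adjusted p = 3.51e-05 and 3.44e-07). Its log2 difference of 2.66 ± 0.71 between KO and WT activated cells did not pass the test over all genes (SE, edgeR, adjusted p = 0.211). The study itself, which used DESeq2, lists Aqp4 as higher in KO activated cells at an adjusted p under 0.05. The alternative DESeq2 fit of all 12 libraries did not call Aqp4 in this contrast either. The call of Aqp4 therefore differs between the study and both of these fits, and the cause was not tested.

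Synm, which encodes an intermediate filament protein that binds dystrobrevin, rose by 2.43 ± 0.37 on the log2 scale in WT and by 2.18 ± 0.37 in KO (SE, edgeR, adjusted p = 5.22e-05 and 0.000148). Dysf, the membrane repair protein dysferlin, fell by 2.50 ± 0.73 in WT (SE, edgeR, adjusted p = 0.0138), and its log2 difference of -1.82 ± 0.70 in KO was not called (adjusted p = 0.0501). Mast1, a kinase bound by syntrophins, fell by 2.88 ± 0.81 in KO (SE, edgeR, adjusted p = 0.00987), where it had 4 summed counts, and its log2 difference of -1.27 ± 0.68 in WT was not called (adjusted p = 0.162). Kcnj10 was at 0 counts in WT activated libraries, at least 2.92-fold lower than the mean of WT quiescent ones. Those quiescent libraries ran from 0.426 to 2.56 CPM, the lowest close to the floor of 0.357 CPM. In KO the Kcnj10 log2 difference of -0.58 ± 1.07 was not called (SE, edgeR, adjusted p = 0.675).

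**Figure D5:**
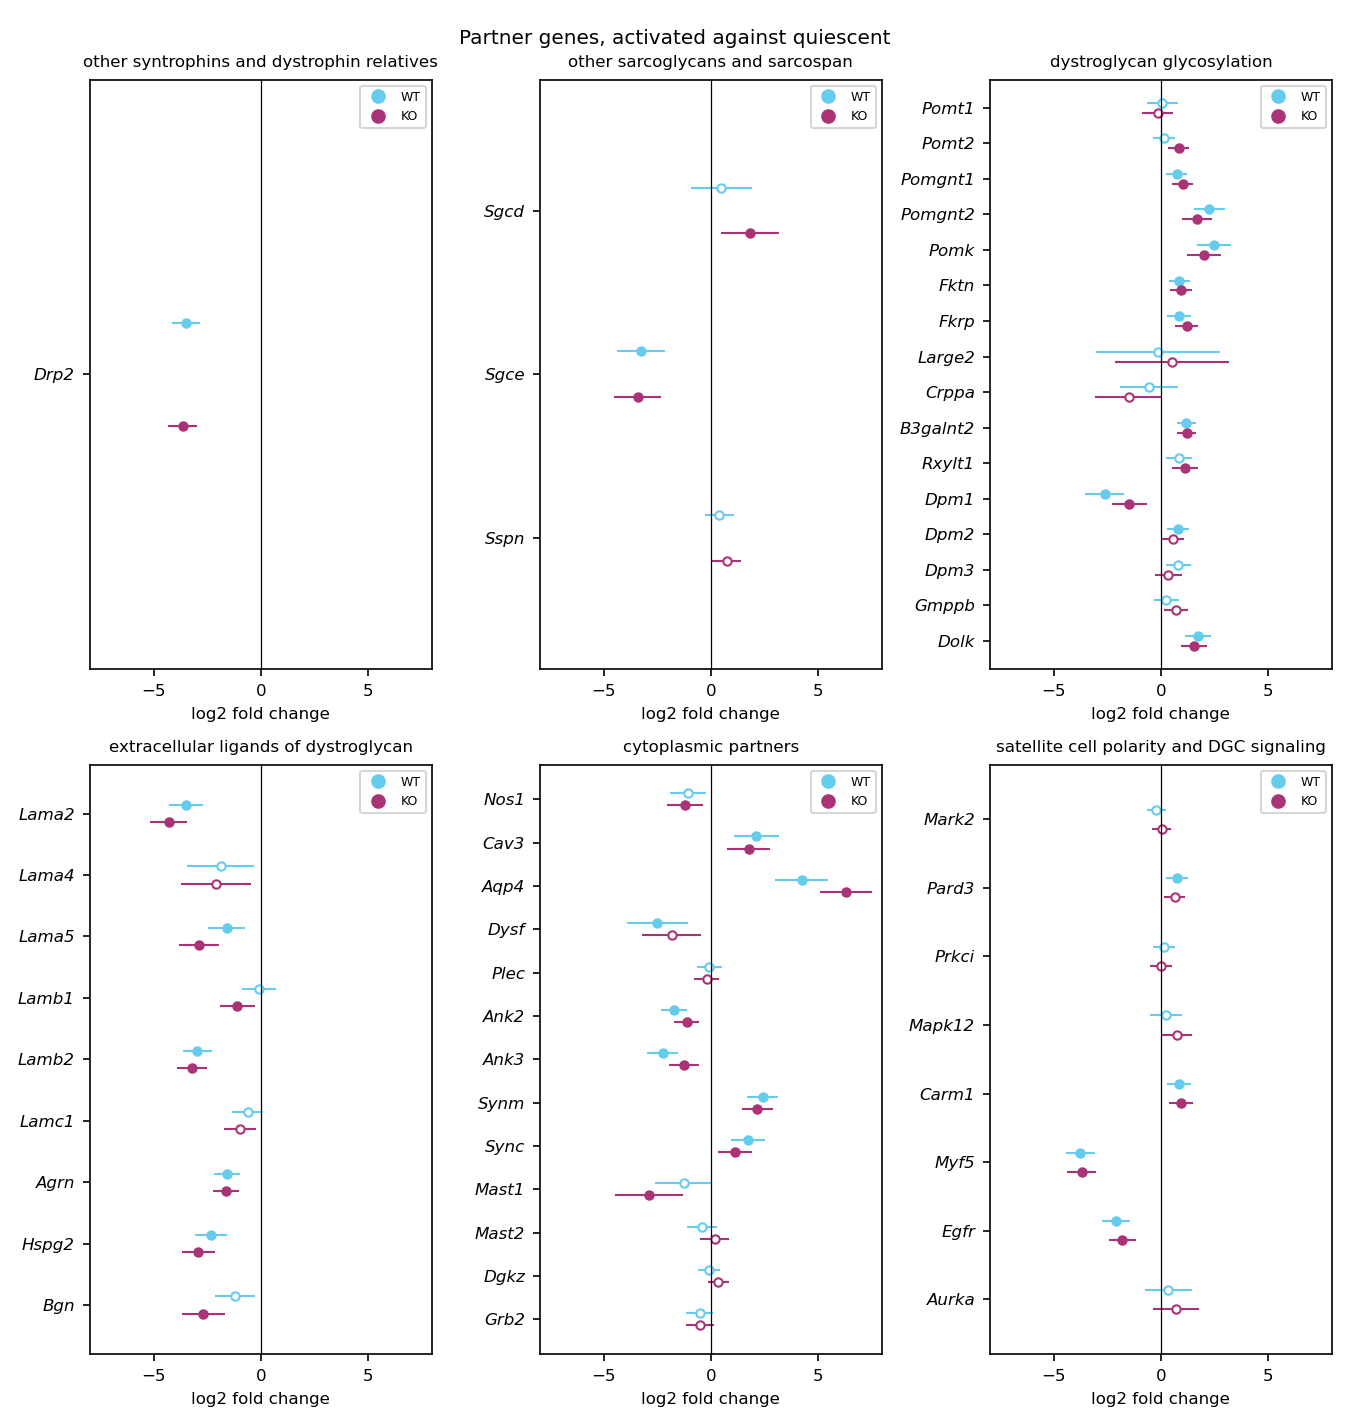
Log2 fold change of activated against quiescent cells for the partner genes in 6 lists, in WT and KO, with approximate 95% intervals and filled points for genes called at an adjusted p under 0.05 (edgeR). Most glycosylation genes lie to the right and all plotted ligands to the left of 0, and genes at 0 counts in an activated group and some others are left out.

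In the list of satellite cell polarity and signaling through the complex, 2 of 8 rose and 2 fell in WT and 1 rose and 2 fell in KO. The 50% and 37.5% called lie near the 43.7% and 48.3% of genes averaging 10 or more counts. Myf5, the myogenic factor, fell by 3.76 ± 0.35 on the log2 scale in WT and fell by 3.69 ± 0.35 in KO (SE, edgeR, adjusted p = 2.15e-07 and 1.94e-07). Egfr fell by 2.09 ± 0.33 and 1.81 ± 0.32 (adjusted p = 7.36e-05 and 0.000244). Carm1, a methyltransferase, rose by 0.85 ± 0.29 and 0.93 ± 0.29 (adjusted p = 0.0317 and 0.0173). Mapk12, the kinase scaffolded by Sntb1, was at 23.7 ± 5.13 and 25.03 ± 14.7 CPM in WT and KO quiescent cells (SD, n = 4) and 27.9 ± 5.74 and 41.8 ± 2.48 CPM in WT and KO activated cells (SD, n = 2). It was not called in any of the 4 contrasts. Its values were higher in both KO activated libraries than in both WT activated libraries, with a log2 difference of 0.60 ± 0.45 (SE, edgeR, adjusted p = 0.800).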

How the data were processed

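Libraries were made with the NEBNext Ultra kit and sequenced as paired ends. Per the labels and the study's methods, the authors used Trim Galore 0.6.0, STAR 2.7.2a and build GRCm38.p6/mm10, and counted reads on GENCODE genes with Rsubread, so the deposited values are counts without scaling. The deposited FPKM hold 1 value per group, a mean by the authors, and served only as a check of levels. How multi-mapping reads and strand were treated is not given in the sources used here.

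The counts were fitted in R 4.3.3 with edgeR 4.0.16 (quasi-likelihood, filterByExpr, TMM), with 12 libraries in 1 fit and a mean per group, and p-values were adjusted by Benjamini and Hochberg over the 25771 genes tested of 55401. Genes were called at an adjusted p under 0.05. CPM used TMM library sizes, and log2 CPM a prior count of 2. The test was checked on simulated counts. Exon lengths came from GENCODE M21 for 55141 genes, a release other than the one the authors counted on. Shares were tested by exact permutation (scipy). DESeq2 1.42.0 was an alternative. The replicates are separate samples of a group in the labels, and p-values measure only the spread between these samples, which may be technical. With 2 libraries per activated group and 3172164 to 5427280 counts in each, small differences may go undetected, and floors of 3 counts cover counting error only.

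The members and lists were chosen with earlier results of these data known. Named genes were the 9 members, Cxcr4, Pax7, CT010467.1, Aqp4 and Mapk12, the called genes of each pathway list with the largest fold changes (at most 3 per contrast), every gene of a list of 5, and the 5 genes most like Sntb1. Some of the genes this rule names are not reported here. Marker lists covered satellite cell, early differentiation, mature fibre, endothelial, fibroadipogenic, hematopoietic, smooth muscle and Schwann cells.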

Additional observations from a re-analysis of the deposited data

Results flagged for a closer look

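Among 22 groups of 4 quiescent libraries examined (9 genes and 2 shares in WT and KO), 1 held a library far from the others. Dtnb in WT quiescent replicate 2 was at 7.17 CPM while the other 3 were at 13.6 to 14.1 CPM, a gap of 0.926 of the range of the group, above Dixon's critical value of 0.829. Chance marks about 1 in 20 such groups.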

How the results depend on the processing

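Under 10 other settings and with each library left out in turn, 0 of 9 members were called between KO and WT quiescent cells. With a library left out, the small log2 fold changes of some members crossed 0, ranging from -0.079 to 0.33 for Sntb1, -0.14 to 0.27 for Sntb2, -0.14 to 0.089 for Utrn, -0.57 to 0.060 for Dtna, -0.31 to 0.23 for Dag1 and -0.11 to 0.089 for Sgcb. Those of Dmd, Dtnb and Sgca kept their sign. Dag1 was at 0.020 without the filter on low counts. The difference in the Sntb1 share between KO and WT quiescent cells ranged from -0.72 to 1.66 percentage points over libraries left out, and that in the Dmd share of activated against quiescent cells from 2.94 to 12.3. Partner genes called between KO and WT activated cells went from 0 to 2 without the filter on low counts, to 1 with the replicate block, and from 0 to 2 over libraries left out. Partner genes called with culture were 34 in WT (23 to 35 over libraries left out) and 37 in KO (24 to 38, the lowest without KO activated replicate 1). Both libraries richest in CT010467.1 (WT and KO activated replicate 2, chosen after seeing the data) were also left out together. The lone library of each activated group was then assumed to vary like the other groups, so only effect sizes are given. The log2 fold change with culture was then 0.85 for Dtna and -1.56 for Sgca in WT, and 0.90 for Sgcb in KO. All genes called between KO and WT activated cells numbered 13, but 334 without the filter, 169 with DESeq2, 2 among genes averaging 10 or more counts, 3 with the compared groups only, 10 with the replicate block and 0 to 211 over libraries left out (0 without WT activated replicate 1, 211 without WT activated replicate 2). The deviations of same-numbered quiescent libraries correlated with r of 0.240, 0.165, -0.266 and 0.587, and the activated ones with r of -0.07, so not every same-numbered pair deviated together. The labels do not say what the numbers share, and they were not treated as pairing the samples. The replicate block changed no call of a member. Sgcb in WT was called with DESeq2 (adjusted p = 0.0384) or among genes averaging 10 or more counts (0.0348), and Sgca in WT with the robust fit (0.0476). The cause of these changes was not tested.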

Other observations

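Other cell types were measured through marker lists in the same libraries. Between KO and WT quiescent cells, 0 markers of any list were called by edgeR, and all 8 hematopoietic markers had positive log2 fold changes, with a median of 0.66 and 2 at an unadjusted p under 0.05. The summed hematopoietic level was highest in KO quiescent replicate 4, at 370 CPM, against 87.8 to 172 CPM in the other quiescent libraries and 40.7 to 67.1 CPM in the activated libraries. With culture 4 of 8 hematopoietic markers were lower in WT and 5 of 8 in KO. Beside them, 18.3% of all genes were lower in WT and 20.4% in KO. Among genes averaging 10 or more counts, 43.7% and 48.3% were called in either direction.

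Smooth muscle and pericyte markers summed to 1490 to 2762 CPM in quiescent libraries and 223 to 424 CPM in activated ones, with 5 of 8 lower in WT and 6 of 8 in KO. Schwann and glial markers were lower for 5 of 6 in each genotype, and summed to 261 to 622 CPM in quiescent and 59.1 to 204 CPM in activated libraries. Early muscle differentiation markers summed to 167 to 473 CPM in quiescent and 515 to 1341 CPM in activated libraries. Of these 10 genes 3 rose and 2 fell in WT and 3 rose and 1 fell in KO with culture. The 50% and 40% called lie near the 43.7% and 48.3% of genes averaging 10 or more counts. For the lists that were lower, the share of all genes was 18.3% in WT and 20.4% in KO. Myh8, a developmental myosin heavy chain, was the 1 marker called between KO and WT activated cells, higher by 3.69 ± 0.65 on the log2 scale (SE, edgeR, adjusted p = 0.0480). It was named after its value was seen.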
